A study of Arabidopsis thaliana with 27 samples.

Results

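The 49 genes described here encode the late embryogenesis abundant (LEA) proteins of *Arabidopsis thaliana*, the dehydrins among them. They were taken as a list of 49 loci from the 34218 genes of the normalized count table. The rule is a list of locus names and uses no measured value, but it was drawn up with earlier results of these data known. The list held 10 dehydrins, 3 genes of the LEA_1 class, 3 of LEA_2, 4 of LEA_3, 19 of LEA_4 and 2 of LEA_5, with 2 AtM, 2 PvLEA18 and 4 seed maturation protein genes. LEA proteins are mostly small, very hydrophilic proteins that accumulate as the embryo dries late in seed maturation, and many of them also appear in leaves under drought, cold or salt. Dehydrins carry a lysine-rich K-segment that can fold on membrane surfaces, whereas the COR15 proteins act in the chloroplast stroma, where they stabilize membranes. Many LEA genes are switched on by abscisic acid (ABA) through bZIP factors that bind the ABA-responsive element (ABRE), and others by DREB and CBF factors that bind the dehydration-responsive element (DRE).

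RNA of whole leaves was sequenced from 3 genotypes in 3 water treatments, which made 9 groups of 3 samples labelled as replicates. WT was Col-0, *GC::AtTOR* plants carried the full-length *AtTOR* (target of rapamycin kinase) sequence behind a tobacco promoter that is active in guard cells, and *35S::AtTOR* plants carried it behind the cauliflower mosaic virus 35S promoter, active in most cells. The transgenic lines were selected for herbicide resistance, several homozygous lines stood behind each construct, and the line that gave a sample was not given in the sources used here. According to the sample records, drought plants had no water for 11 days, from 27 to 38 days after germination, re-watered plants had then had water for 4 days, and well-watered plants were kept at a constant soil water content. The day length of these plants and the age at which well-watered leaves were taken were not given in the sources used here. The study calls the samples of a group biological replicates, without saying whether each came from separate plants or pools, so the p-values measure the spread between samples labelled as replicates.

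The reads behind the values ranged from 2739872 to 16707106 in the 26 samples where they could be recovered. Fewest reads came from *35S::AtTOR* re-watered replicate 1, in which 1 read was worth 4.13 normalized counts and low values are therefore coarse. *TOR* itself had 1060.2 to 1362 normalized counts in the 18 WT and *GC::AtTOR* samples and 8353 to 14667 in the 9 *35S::AtTOR* samples, and the levels of WT and *GC::AtTOR* overlapped. The 5 mesophyll markers, genes of photosynthesis, were detected in every group, and their summed level in WT was 358751 to 434470 normalized counts in well-watered, 113043 to 142109 in drought and 93829 to 104995 in re-watered leaves. The 5 guard cell markers summed to 459 to 633 in well-watered, 128 to 158 in drought and 564 to 711 in re-watered WT leaves. In bulk leaf RNA, fewer cells of a type and less RNA per cell cannot be told apart. WT well-watered replicates 2 and 3 held reads of seed storage protein genes. The sum of 10 seed storage and oil body markers was at least 106 in both, 17.4 in the other sample of that group and at most 13.6 in all other samples.

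Several sequence features were more frequent among the 49 proteins than among all proteins. LEA proteins were introduced above as small and very hydrophilic, so these features partly restate what put the genes on the list. In the RefSeq gene models of TAIR10.1, 27 of the 49 had no tryptophan, against 11.3% of 27422 proteins, and 30 had no cysteine, against 5.78%. Their median length was 182 residues, against 348 for all proteins, and their median hydropathy (Kyte-Doolittle average, negative for hydrophilic proteins) was -1.001, against -0.29. The median lysine content was 10.5% among the members and 6.27% among all proteins. *RAB18* had the highest glycine content of the 49, 33.9%. A core of the K-segment, written as a basic residue, any residue, glycine, a hydrophobic residue, any residue, an acidic residue or its amide, lysine and an aliphatic residue, which is part of what defines a dehydrin, was found in 8 of the 10 dehydrins, in 9 of the 49 members and in 70 of all proteins.

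The 250 bases upstream of the annotated start of each gene were searched on both strands for ACGTG (the ABRE core), CACGTG (the G-box, which contains ACGTG on both strands) and CCGAC (the DRE core). ACGTG was found in 34 of the 49 windows (69.4%) and in 22.9% of 27443 promoters, CACGTG in 21 (42.9%) and in 6.49%, and CCGAC in 17 (34.7%) and in 11.97%. Among the 15 members that were called higher under drought in WT (below), 13 held ACGTG, 9 CACGTG and 9 CCGAC. Among the 10 tested members that were not called, 4, 1 and 3 held them, and among the 22 members too low to test 16, 11 and 5. A match is a description and was not tested as a binding site. The windows of 5 members are printed because they span the patterns described next, 5′ to 3′ on the strand of the gene, with the bases of any match in capitals. *LEA7* (chr1:19619474-19619723, plus strand) and *LEA4-5* (chr5:2090431-2090680, minus strand) were among the members with the largest drought rise in WT, with 5 and 4 ACGTG matches. *LTI30* (chr3:18940429-18940642, plus strand) held 3 CCGAC and no ACGTG matches, and is printed for the 214 bases outside the neighbouring gene AT3G50960. *COR15A* (chr2:17712331-17712580, minus strand) held 2 CCGAC matches and 1 G-box. *LEA3* (chr1:624568-624817, minus strand) held none of the 3. All positions are on TAIR10.1, as annotated by RefSeq.
LEA7: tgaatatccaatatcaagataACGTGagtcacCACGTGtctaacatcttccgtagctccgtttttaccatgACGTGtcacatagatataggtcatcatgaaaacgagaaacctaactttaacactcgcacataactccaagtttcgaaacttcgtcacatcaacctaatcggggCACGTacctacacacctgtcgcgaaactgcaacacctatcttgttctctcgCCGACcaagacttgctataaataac
LEA4-5: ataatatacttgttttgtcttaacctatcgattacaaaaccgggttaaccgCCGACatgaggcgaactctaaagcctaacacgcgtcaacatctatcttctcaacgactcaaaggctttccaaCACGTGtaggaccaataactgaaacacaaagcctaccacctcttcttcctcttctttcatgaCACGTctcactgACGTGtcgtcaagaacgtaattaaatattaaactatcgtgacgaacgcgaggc
LTI30: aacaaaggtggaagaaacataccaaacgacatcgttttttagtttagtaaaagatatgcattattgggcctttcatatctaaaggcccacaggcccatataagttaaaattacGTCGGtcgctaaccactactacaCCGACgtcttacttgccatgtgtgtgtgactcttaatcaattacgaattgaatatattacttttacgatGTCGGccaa
COR15A: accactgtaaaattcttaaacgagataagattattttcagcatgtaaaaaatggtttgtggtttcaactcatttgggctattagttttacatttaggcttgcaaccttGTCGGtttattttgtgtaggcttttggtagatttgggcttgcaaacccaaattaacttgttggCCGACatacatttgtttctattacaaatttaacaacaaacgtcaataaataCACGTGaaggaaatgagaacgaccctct
LEA3: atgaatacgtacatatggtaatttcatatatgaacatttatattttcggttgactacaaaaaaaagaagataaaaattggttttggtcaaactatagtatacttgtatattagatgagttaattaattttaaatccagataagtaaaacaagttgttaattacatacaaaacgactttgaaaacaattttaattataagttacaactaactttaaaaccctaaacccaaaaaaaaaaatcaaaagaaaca

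Values are normalized counts, that is, gene counts divided by a size factor for each sample and not divided by gene length, so levels of different genes are not compared. Of the 49 genes, 27 had a mean of 10 or more in some group and were tested, and 22 were not. The 22 were at most 20.5 in any sample. Both LEA_5 genes (*EM1* and *GEA6*, the Em proteins of dry seeds), both AtM genes and all 4 seed maturation protein genes were among them, as were 9 of the 19 LEA_4 genes, and 4 of the 22 were 0 in every sample (AT4G39130, AT3G53770, AT2G03740 and AT2G33690). 8 of the 10 dehydrins, 2 of 3 LEA_1, all 3 LEA_2, 3 of 4 LEA_3, 10 of 19 LEA_4 and 1 of 2 PvLEA18 genes were tested. Of the 27, 14 reached a mean of 10 in every group. *XERO1*, *LEA18*, AT2G42560, AT3G15670 and AT4G36600 reached it under drought only and *LEA* (a dehydrin, AT2G21490) after re-watering only. A member tested through a single treatment had to differ there, so counts of calls are given out of 49 and describe the list without testing it. The background shares printed beside them are of the 18785 genes tested, so the 2 have unlike bases.

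**Figure D1:**
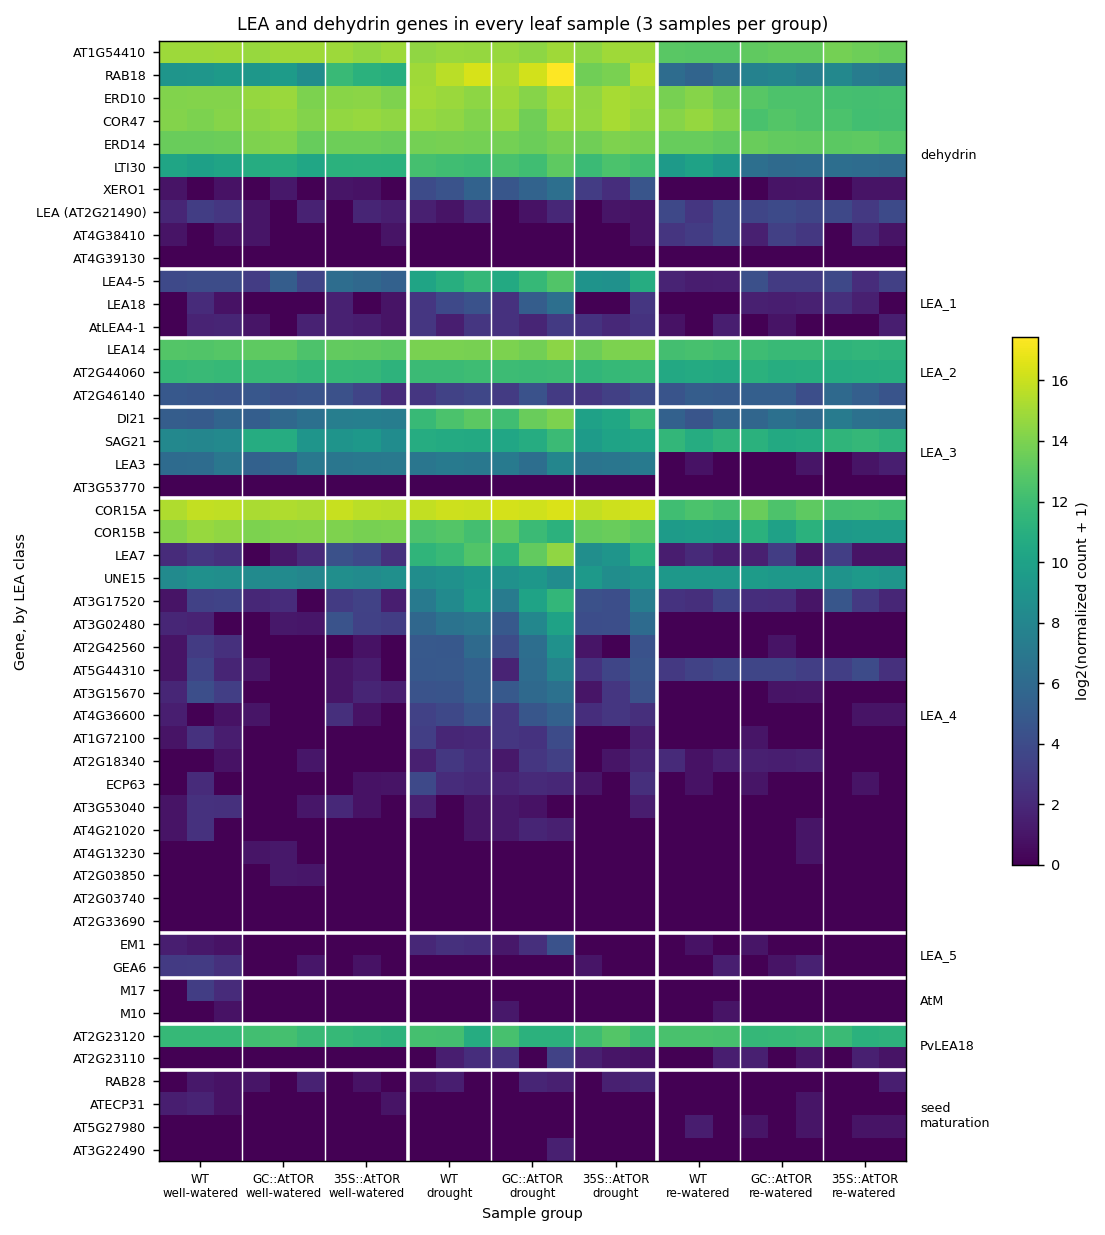
Heatmap of log2(normalized count + 1) for the 49 LEA genes (rows, by class) in the 27 leaf samples (columns, 3 per group of genotype and treatment). The 4 genes at 0 in every sample are dark across the whole row, and colours compare samples within a row, since values are not divided by gene length.

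Differences were fitted with limma on log2(normalized count + 1), over the 18785 genes that reached the mean of 10, in 1 model of the 9 groups. A gene was called higher or lower where its Benjamini-Hochberg adjusted p was under 0.05 and its log2 fold change above 1 or below -1. Under drought in WT, 15 of the 49 genes were higher and 2 lower than in well-watered leaves, beside 7.61% and 12.8% of all genes tested. The median log2 fold change of the 27 members was 1.64, and that of all genes -0.03. The 27 include the 5 members tested through drought only, so this median depends on the filter. Members of every class with tested genes were among the higher ones, except the PvLEA18 class: 3 dehydrins, 2 LEA_1, 1 LEA_2, 2 LEA_3 and 7 LEA_4 genes. With a mean of at least 10 over all samples in place of 1 group, a filter added after the data were seen, 13 were higher and 2 lower. The median of the 24 members left was 1.38. This filter still kept *XERO1*, at a mean of 10.2 over all samples, and also AT2G42560 and AT3G15670. All of these were tested through drought only, so the median of the 24 also depends on drought levels.

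*RAB18*, the dehydrin best known as a marker of ABA responses, had 551, 582 and 728 normalized counts in the 3 well-watered WT samples and 31938, 50115 and 83163 in the 3 drought samples. Every drought sample lay far above every well-watered sample, although the drought samples themselves differed more than 2-fold. Its mean rose 88.8-fold (log2 6.37 ± 0.48 (SE), adjusted p = 2.29e-09 from limma). AT5G66410, at 164 to 595 normalized counts, overlaps it by 11 bases on the opposite strand. *LTI30*, a dehydrin that binds membranes and responds to cold and ABA, had 1230.0, 966 and 1164 in well-watered and 4909, 4438 and 3991 in drought WT leaves. The groups did not overlap, and the mean rose 3.97-fold (log2 1.99 ± 0.22, adjusted p = 2.74e-07 from limma). *XERO1*, its neighbour on chromosome 3, was below 1 in each well-watered WT sample and at 15, 21.4 and 43.3 under drought (adjusted p = 6.58e-06 from limma). *XERO1* passed the filter through drought only, so this p-value is not independent of how it was selected.

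*LEA7*, of the LEA_4 class, was almost absent from well-watered WT leaves, with 3.48, 5.84 and 4.22, and reached 2727, 3599 and 6744 under drought. No tested member had a higher log2 change in WT, 9.54 ± 0.80 on the scale with 1 added (adjusted p = 8.81e-09 from limma). *LEA4-5*, a LEA_1 protein known to accumulate in water-limited leaves, went from 13.1, 15.2 and 15.2 to 1143, 1961 and 3084, a 142-fold rise of the mean (adjusted p = 8.81e-09 from limma). *DI21*, a drought-induced gene of the LEA_3 class, went from 34, 30.4 and 47.3 to 3505, 5688 and 8397, 158-fold (adjusted p = 2.28e-10 from limma). In all of these the highest drought sample was replicate 3. *LEA14*, a LEA_2 gene already expressed in well-watered leaves, rose from 7013, 6751 and 7147 to 15181, 15750.0 and 14544, 2.17-fold. *SAG21*, a mitochondrial LEA_3 protein gene linked to oxidative stress and senescence, rose from 285, 251 and 295 to 1734, 1628 and 1499, 5.85-fold (adjusted p = 9.19e-06 from limma).

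**Figure D2:**
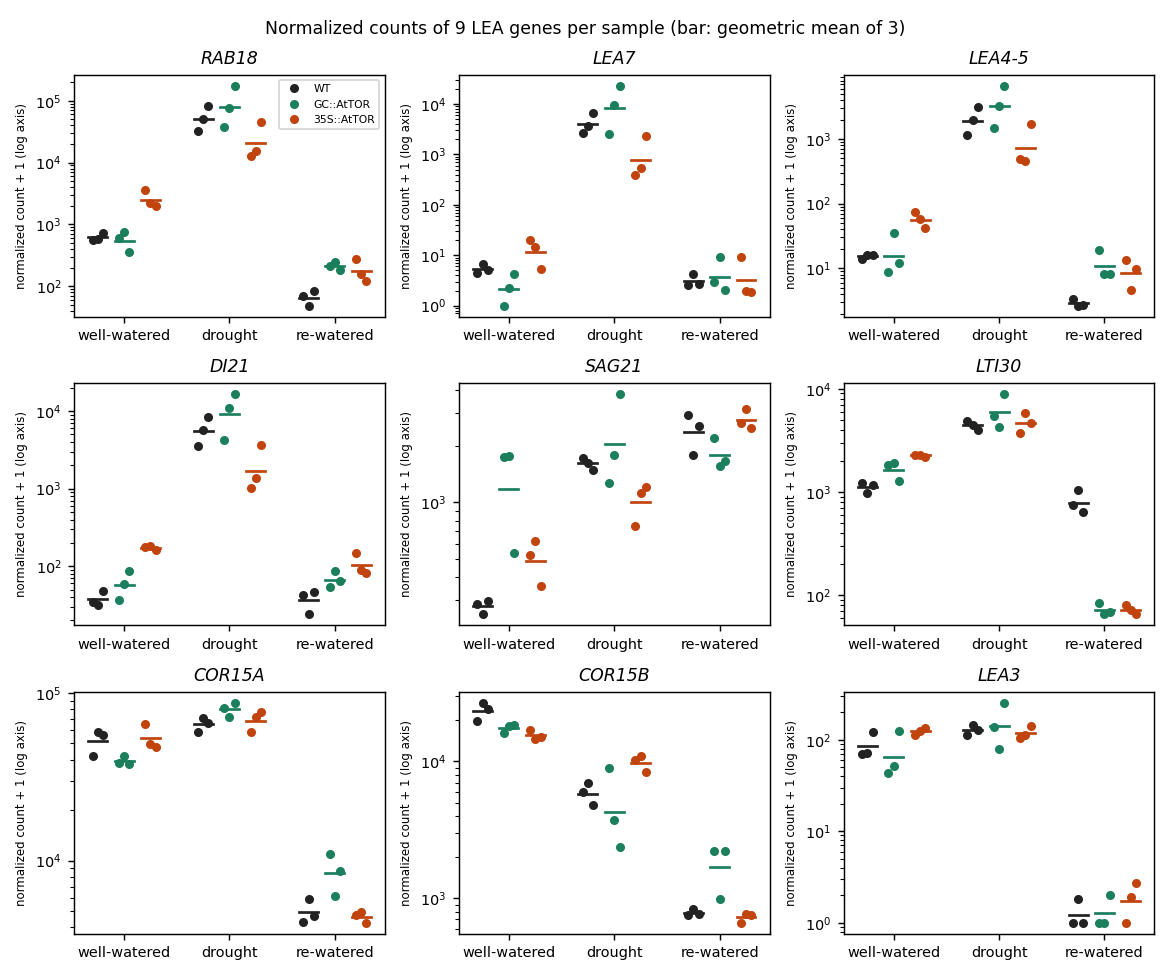
Normalized counts plus 1 (log axis) of 9 LEA genes in each sample, by water treatment, for WT, *GC::AtTOR* and *35S::AtTOR* (points: samples, bars: geometric mean of 3). *RAB18* in WT rises from between 551 and 728 to between 31938 and 83163 under drought, and *LEA3* is at or near 0 in every re-watered sample.

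Further LEA_4 genes were low or absent in well-watered leaves and present under drought. AT3G17520 had 0.871, 9.34 and 10.1 normalized counts in well-watered and 140.4, 326 and 725 in drought WT leaves, and AT3G02480 had 2.61, 2.34 and 0 and 55.2, 97.9 and 118. Both had drought samples above every well-watered sample, with adjusted p of 9.34e-05 and 2.17e-05 from limma. AT2G42560, AT3G15670, AT4G36600 and AT5G44310 were called too, but at drought levels of only 9.36 to 63. All of these but AT5G44310 passed the filter through drought only. AT3G15670 had 2.61, 17.5 and 8.44 in well-watered WT leaves, and its lowest drought sample, 20.6, was little above the highest of these. The higher well-watered values of AT3G15670, AT2G42560, AT3G17520 and AT5G44310 were in the 2 samples with seed storage reads, as were those of *M17*, at 0, 8.17 and 3.38, and the part of these reads in the calls was not tested. Without WT well-watered replicate 1 the calls of AT2G42560, AT5G44310, *LEA18* and AT3G15670 were lost (adjusted p = 0.0507, 0.0791, 0.0685 and 0.216 from limma). Without replicates 2 and 3 of that group together, a choice made after the data were seen that leaves 1 sample and assumes that it varies like the other groups, 15 members were higher and 1 lower.

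The drought response was then measured within each transgenic line. In *GC::AtTOR*, 16 members were higher and 1 lower under drought (background 8.02% and 17%), with a median log2 of 1.12. In *35S::AtTOR*, 8 were higher and 0 lower (background 2.32% and 5.44%), with a median of 0.77. The medians of all genes were -0.03 and -0.01. Over the 24 members with a mean of at least 10 over all samples the medians were 1.12 and 0.91. For the 0 lower calls in *35S::AtTOR*, *COR15B* had a log2 of -0.66 (adjusted p = 0.128 from limma). The members called higher in *35S::AtTOR* were *RAB18*, *LTI30*, *XERO1*, *LEA4-5*, *LEA7*, *DI21*, *SAG21* and AT5G44310. The call of AT5G44310 was lost without any of 5 of the 6 samples, that of *LTI30* without *35S::AtTOR* drought replicate 2, and that of *SAG21* without well-watered replicate 1 or 3 or drought replicate 2 or 3. In *GC::AtTOR* the calls of *LEA3* and *LEA14*, both of which were above 1 by little on the log2 scale, were lost without drought replicate 3 and under other omissions.

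*GC::AtTOR* drought replicate 3 was the highest of its group for 23 of the 27 members tested. *RAB18* had 38312, 76487 and 175998 normalized counts in the *GC::AtTOR* drought samples, and *LEA7* had 2586, 9444 and 23305. AT3G02480 had 28.2, 271 and 1048 and AT2G42560 15.3, 76.8 and 456. The samples of this group differed by large factors for these genes. The median range of the 27 members over the 3 samples was 1.67 on the log2 scale, against 0.42 for all genes tested. In the WT drought group the corresponding ranges were 0.83 and 0.32, and replicate 3 was the highest for 16 of the 27. In *35S::AtTOR* drought they were 0.81 and 0.32, and replicate 3 was the highest for 17. The share of all genes that were highest in replicate 3 was not counted. The counts of 23, 16 and 17 are therefore not read as a trait of the members. Replicate 3 of each drought group carried library number 4, and what this number stands for was not given in the sources used here. Deviations from the group mean, over all genes tested, were compared between same-numbered drought replicates. Their correlations were -0.18 to 0.50 for *GC::AtTOR* and WT and -0.13 to 0.32 for *35S::AtTOR* and WT. In neither comparison did all 3 replicates exceed 0.1. Whether a shared source of variation lay behind the high samples was not tested.

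The drought response itself was compared between each line and WT. For *GC::AtTOR* 0 members were called (background 0.0373% higher and 0.208% lower) with limma and 0 with edgeR, and DESeq2 on recovered reads called 2. With limma 5 members, in either direction, had an unadjusted p under 0.05, and the share of all genes at that threshold was not counted. Without *GC::AtTOR* drought replicate 1 limma called 3, without *GC::AtTOR* well-watered replicate 3 it called 2, and without WT well-watered replicate 1 or WT drought replicate 3 it called 1. For *35S::AtTOR* 0 members had a higher response and 4 a lower response (background 2.09% and 1.37%). The 4 were *RAB18* (log2 -3.34 ± 0.68, adjusted p = 0.00697), *DI21* (-3.89 ± 0.66, 0.0023), *LEA4-5* (-3.28 ± 0.82, 0.0216) and AT3G02480 (-4.11 ± 1.17, 0.0368), all from limma. *RAB18* in *35S::AtTOR* went from 3629, 2244 and 1988 in well-watered leaves to 12943, 15174 and 44869.9 under drought, a 9.28-fold rise. Its well-watered samples were all above, and its drought samples overlapped with, those of WT. *DI21* in *35S::AtTOR* went from 176, 179.5 and 162 to 1013, 1350.2 and 3661, 11.6-fold, from a start above every WT sample. *LEA4-5* in *35S::AtTOR* went from 74.2, 57.6 and 40.8 to 485, 453 and 1729.7, 15.4-fold. Without WT well-watered replicates 2 and 3 together, 1 member was called lower, and leaving out *35S::AtTOR* well-watered replicate 2, WT drought replicate 3 or *35S::AtTOR* drought replicate 1 or 2 left 2 calls. The call of *LEA4-5* was lost in each of these single omissions and with edgeR (adjusted p = 0.0604). The call of AT3G02480 was lost without any of 9 of the 12 samples, and edgeR and DESeq2 did not make it (adjusted p = 0.307 and 0.183).

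**Figure D3:**
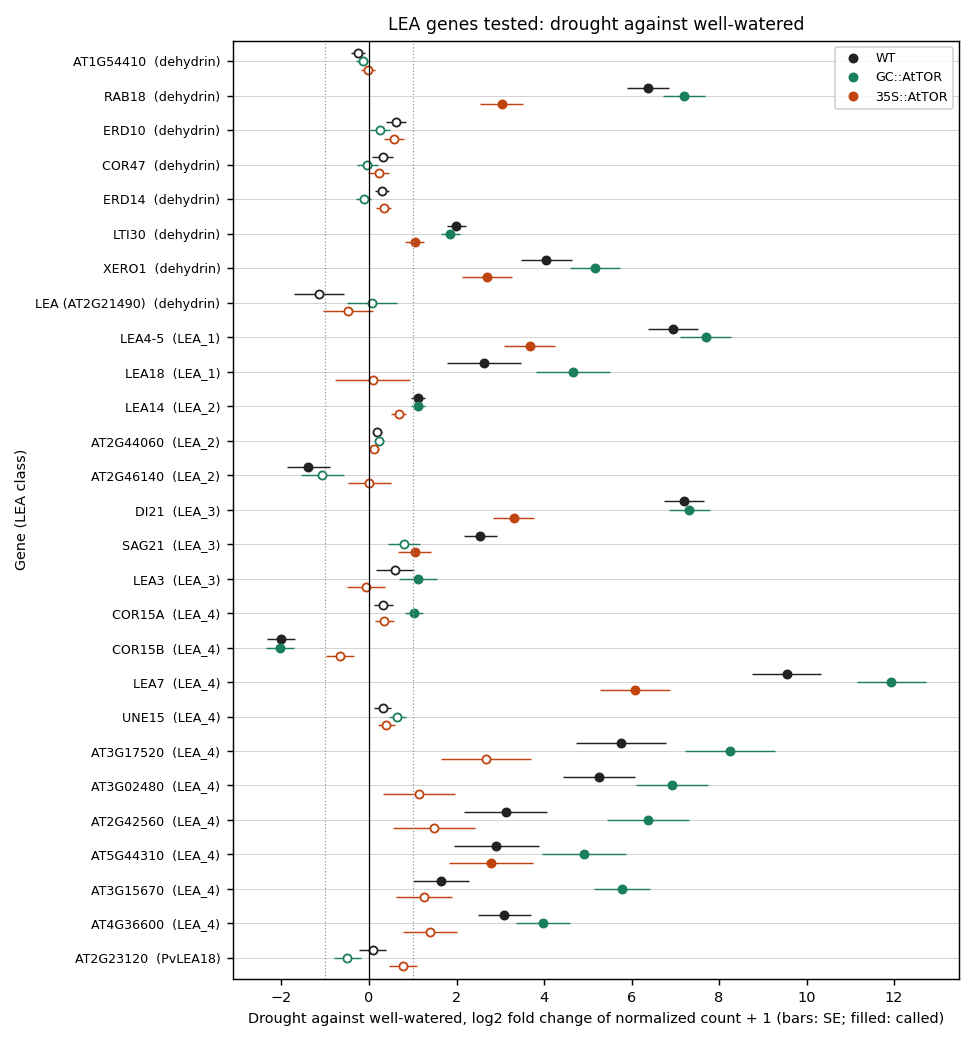
Log2 fold change of normalized count plus 1, drought against well-watered, for the 27 LEA genes tested, in WT, *GC::AtTOR* and *35S::AtTOR* (points with SE, filled where called). *LEA7* is at 9.54, 11.94 and 6.07 in the 3 genotypes, and *COR15B* is to the left of 0 in each.

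The drought change of 4 dehydrin genes that were expressed in every group was not called. AT1G54410, which encodes the small histidine-rich dehydrin HIRD11, had 30612, 29424 and 31683 normalized counts in well-watered and 23229, 27640.1 and 26370.2 in drought WT leaves (log2 -0.25 ± 0.16, adjusted p = 0.198 from limma). *ERD14*, an acidic dehydrin that binds ions and membranes, had 11392, 11363 and 11801 and 13857, 14603 and 14043 (log2 0.30 ± 0.16, adjusted p = 0.129). *ERD10* and *COR47*, 2 related acidic dehydrins that also respond to cold, had log2 changes of 0.61 ± 0.23 and 0.31 ± 0.24, and *ERD10* passed the p threshold (adjusted p = 0.0306 from limma) but not the fold threshold. The coding sequences of this pair are 81.5% identical, with an identical stretch of at most 32 bases, so reads could have been shared between them. In neither line was the drought change of these 4 dehydrin genes called. The same held for AT2G44060 (LEA_2), *UNE15* (LEA_4) and AT2G23120 (PvLEA18), whose log2 changes in the 3 genotypes ranged from -0.49 to 0.77.

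The 2 chloroplast COR15 genes, 7 bases apart on chromosome 2, parted under drought. *COR15B* had 19819, 26895 and 24023 normalized counts in well-watered and 5944, 6929.8 and 4784 in drought WT leaves. All 3 drought samples were below every well-watered sample, 4.01-fold in the mean (log2 -2.01 ± 0.32, adjusted p = 2.53e-05 from limma), and 3.5-fold in *GC::AtTOR*. *COR15A* had 42239, 58153 and 56216 and 58791, 70469 and 66353 in the same WT samples (log2 0.33 ± 0.21, adjusted p = 0.196 from limma), without overlap but below the fold threshold. In *GC::AtTOR* its mean rose 2.04-fold (log2 1.02 ± 0.21, adjusted p = 0.000297), a call at the fold threshold that was lost without *GC::AtTOR* well-watered or drought replicate 3. The coding sequences are 83.8% identical, with an identical stretch of at most 31 bases, and AT2G42520, at 294 to 720 normalized counts, overlaps *COR15B* on the opposite strand by 468 bases. The other member called lower in WT was AT2G46140 (LEA_2), at 27, 24.5 and 21.9 and 5.62, 9.79 and 11.8, whose call was lost without WT well-watered replicate 1 or 2 or WT drought replicate 1.

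Of the members called higher under drought in a genotype, all but *SAG21* and AT5G44310 were called lower after re-watering than under drought in that genotype. AT5G44310 had 11.7, 11.7 and 8.22 normalized counts in re-watered *GC::AtTOR* leaves, within the range of its drought samples, and *SAG21* is described further on. Against drought, 18 members were lower and 2 higher in WT (background 12.5% and 15.4%), 19 lower and 2 higher for *GC::AtTOR* (10.4% and 17.9%), and 16 lower and 3 higher for *35S::AtTOR* (9.27% and 12%). The median log2 fold changes of the 27 members were -2.90, -3.11 and -2.45, and -2.49, -3.06 and -2.17 when members with a group at 0 were set to the bound that 3 reads allow. Over the 24 members with a mean of at least 10 over all samples they were -2.70, -2.71 and -2.57. *RAB18* had 69.3, 47.8 and 82.5 normalized counts in re-watered WT leaves, 828-fold below drought. *LEA7* had 1.59, 3.29 and 1.7 and *LEA4-5* 2.39, 1.65 and 1.7. AT3G02480 was 0 in all 9 re-watered samples, and AT2G42560 and AT3G15670 were 0 in all 3 re-watered WT samples.

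Other members were present in well-watered and drought leaves and low after re-watering. Against well-watered leaves, 8 members were lower and 1 higher in WT (background 15.8% and 14.4%, and 7 and 3 with equal sample totals), 9 lower and 3 higher for *GC::AtTOR* (7.95% and 6.68%), and 11 lower and 4 higher for *35S::AtTOR* (9.92% and 9.72%). The medians of the 27 were -0.60, -0.38 and -0.75. With the bounds for groups at 0 they were -0.18, 0.00 and -0.66, and over the 24 members with a mean of at least 10 over all samples -0.56, -0.53 and -1.31. *LEA3*, a LEA_3 gene whose promoter window held none of the 3 motifs, had 68.8, 71.2 and 119.8 in well-watered, 111, 145 and 128 in drought and 0, 0.823 and 0 in re-watered WT leaves. It was at most 1.73 in the 9 re-watered samples and at least 42.4 in the 18 others (adjusted p = 9.28e-11 in WT from limma). *COR15A* had 4317, 5856 and 4690.0 in re-watered WT leaves, 10.5-fold below well-watered, and *COR15B* had 751, 831 and 760.3, 30.2-fold below. HIRD11 transcript (AT1G54410) was at 7909.9, 7487 and 7712, 3.97-fold below well-watered WT leaves. *LEA3*, *COR15A*, *COR15B*, AT1G54410 and *RAB18* were called lower in each of the 3 genotypes. In *GC::AtTOR* the call of *RAB18* was lost without well-watered replicate 1 or 2 or re-watered replicate 1 or 3 (adjusted p = 0.0537 to 0.105 from limma).

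*SAG21* took the opposite course in WT. It had 2955, 1789.9 and 2558 normalized counts in re-watered WT leaves, 8.79-fold above well-watered leaves (log2 3.10 ± 0.37, adjusted p = 2.72e-07 from limma) and above every drought sample, though not called against drought (adjusted p = 0.2). Of 6 senescence markers, 5 were tested in the same comparison, with 1 higher, 0 lower and a median log2 of 0.73. *SAG13* was the higher one, at 18.3, 9.34 and 12.7 in well-watered and 144, 84.8 and 128 in re-watered WT leaves, *NYE1* had 221, 216 and 197 and 371, 351 and 330.0, below the fold threshold, and *SAG12* was 0 in every sample. The sum of the 6 was 1223 to 1413 in re-watered and 1477 to 1724 in well-watered WT leaves, most of it from *ACD1*, which was not called (log2 -0.69 ± 0.21). Their part in the level of *SAG21* was not tested. In *35S::AtTOR* *SAG21* rose 5.56-fold after re-watering, and in *GC::AtTOR* it was not called (log2 0.60 ± 0.37). The dehydrin *LEA* (AT2G21490) had 0.965, 0 and 2.19 in well-watered and 11.7, 14.3 and 11.3 in re-watered *GC::AtTOR* leaves and was called higher there and in *35S::AtTOR*, at a level of a few reads. *LEA* passed the filter through re-watered leaves only. *UNE15* rose 2.27-fold in *GC::AtTOR* (adjusted p = 4.09e-05 from limma).

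**Figure D4:**
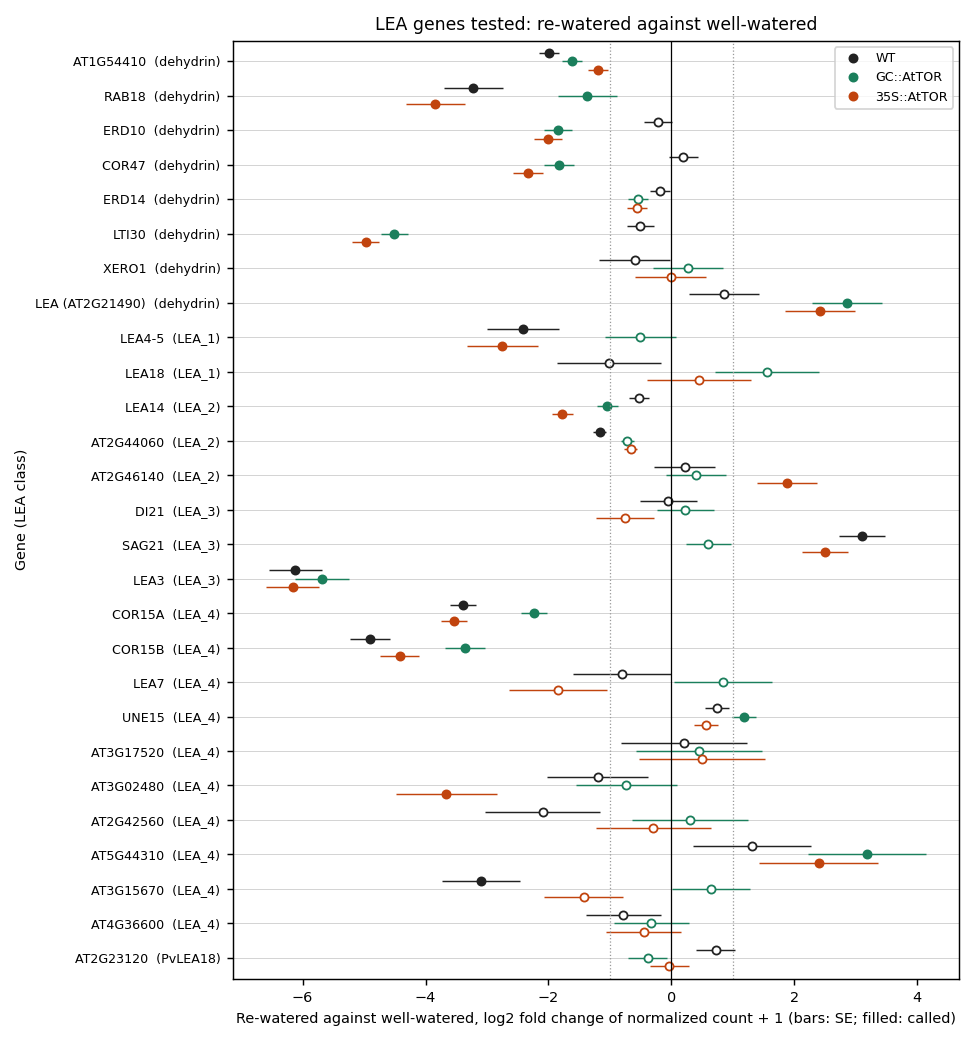
Log2 fold change of normalized count plus 1, re-watered against well-watered, for the 27 LEA genes tested, in WT, *GC::AtTOR* and *35S::AtTOR* (points with SE, filled where called). *LTI30* is at -0.50 in WT and at -4.51 and -4.97 in the lines, while *COR15B* is at -4.90, -3.36 and -4.42.

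Re-watered leaves of each line were compared with those of WT. Re-watered *GC::AtTOR* leaves had 3 members above WT and 3 below it (background 8.3% and 6.35%). Re-watered *35S::AtTOR* leaves likewise had 3 above and 3 below (5.15% and 4.85%). In both lines the members called lower were *LTI30*, *COR47* and *ERD10*. *LTI30* had 736, 1046 and 631 normalized counts in re-watered WT leaves, 82.6, 64.5 and 66.8 in those of *GC::AtTOR* and 78.5, 70.5 and 64 in those of *35S::AtTOR*. All 6 line samples were below all 3 WT samples, 11.3-fold and 11.3-fold in the mean (adjusted p = 2.68e-10 and 2.82e-10 from limma). *COR47* had 19498, 25538 and 17744 in the WT samples, 5493, 6855 and 5988 for *GC::AtTOR* and 5745, 4441 and 4665 for *35S::AtTOR*, 3.42-fold and 4.23-fold lower. *ERD10* had 15037, 19302 and 13183, 7581, 5972 and 5981 and 5047, 4856 and 4914, 2.43-fold and 3.21-fold lower. *COR47* and *ERD10* in re-watered WT leaves were thus near their well-watered levels, whereas in the lines they were below them.

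The members called higher than WT in re-watered leaves were far below their drought levels, except *COR15B* in *GC::AtTOR*. *RAB18* had 214, 246 and 181 normalized counts in the *GC::AtTOR* samples and 277, 159 and 123 in the *35S::AtTOR* samples, both above the WT samples, at 69.3, 47.8 and 82.5 (3.21-fold and 2.8-fold, adjusted p = 0.00708 and 0.0226 from limma). *LEA4-5* was called in both lines, at 18.5, 7.17 and 7.19 in the *GC::AtTOR* samples and 12.4, 3.71 and 8.65 in the *35S::AtTOR* samples. In *GC::AtTOR* the call was lost without re-watered replicate 1 (adjusted p = 0.065 from limma) and was not made by edgeR. *COR15B* was 2.32-fold higher in *GC::AtTOR*, with 2225, 993 and 2218, the second of which was closest to the WT samples. Of the 5 mesophyll markers 4 had higher re-watered levels in *GC::AtTOR* than WT (median log2 1.28) and 1 in *35S::AtTOR* (0.79), and their part in the level of the chloroplast protein gene *COR15B* was not tested. *DI21* was 2.87-fold higher in *35S::AtTOR*. Without WT re-watered replicate 2 limma called 3 members in the *35S::AtTOR* comparison in place of 6, and without the shallow *35S::AtTOR* re-watered replicate 1 the calls of *RAB18*, *DI21* and *LEA4-5* were lost (adjusted p = 0.121, 0.0746 and 0.158 from limma). *COR15B* in *GC::AtTOR* fell under the fold threshold without re-watered replicate 1 or 3.

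The genotypes were also compared in how far re-watered leaves departed from well-watered leaves. In *GC::AtTOR* 4 members had a higher and 4 a lower change than in WT (background 8.8% and 7.87%, and 3 and 5 with equal sample totals), and in *35S::AtTOR* 0 and 4 (7.82% and 7.63%). *LTI30* (log2 -4.01 ± 0.31 in *GC::AtTOR* and -4.47 ± 0.31 in *35S::AtTOR*), *COR47* (-2.02 ± 0.34 and -2.53 ± 0.34) and *ERD10* (-1.63 ± 0.32 and -1.79 ± 0.32) had a lower change in both. The other 2 called lower were *SAG21* in *GC::AtTOR* and *LEA14* in *35S::AtTOR*. The 4 with a higher change in *GC::AtTOR* were *RAB18*, *COR15A*, *COR15B* and AT3G15670. The mesophyll markers had a higher change too, 5 of 5 in *GC::AtTOR* and 4 of 5 in *35S::AtTOR*, and their part was not tested. The call of *RAB18* was lost without any of 9 of the 12 samples, and that of *COR15A* without *GC::AtTOR* re-watered replicate 1. For the 0 higher calls in *35S::AtTOR*, 8 members had an unadjusted p under 0.05 in either direction, and edgeR and DESeq2 each called 5 members in that comparison, counting both directions. The share of all genes at that unadjusted threshold was not counted. Without WT well-watered replicates 2 and 3 together, the 4 higher calls in *GC::AtTOR* fell to 0 and the 4 lower calls in each line stayed at 4 in number.

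In well-watered leaves the lines differed from WT in few members. In *35S::AtTOR* 4 were higher and 0 lower (background 1.31% and 1.44%): *RAB18*, *DI21*, *LEA4-5* and *LTI30*, each of them a drought-induced member. Well-watered *35S::AtTOR* leaves had 3629, 2244 and 1988 normalized counts of *RAB18*, 4.23-fold above WT and below every drought sample (log2 2.04 ± 0.48, adjusted p = 0.0114 from limma). *DI21* was 4.64-fold higher (adjusted p = 0.00559), *LEA4-5* 3.98-fold (0.0408) and *LTI30* 2.01-fold (0.00639). The *35S::AtTOR* samples lay above every WT sample for these 4 genes. The call of *LEA4-5* was lost without any single sample of the 6, and edgeR and DESeq2 did not make it. Without WT well-watered replicate 2 limma called 1 member and without *35S::AtTOR* well-watered replicate 2 it called 2. Without WT replicates 2 and 3 together 0 were called.

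In well-watered *GC::AtTOR* leaves 1 member was higher and 1 lower than in WT (background 0.98% and 0.0905%). *SAG21* had 1742, 1764 and 532 normalized counts against 285, 251 and 295 in WT (log2 2.09 ± 0.37, adjusted p = 0.00524 from limma). The third sample was far below the other two but still above WT, and without *GC::AtTOR* replicate 1 or 2 the call was lost (adjusted p = 0.0574 and 0.0603 from limma). *DREB2A* had 1497, 1408 and 508 in the same samples, also lowest in the third. AT3G15670 was 0 in all 3 *GC::AtTOR* samples and had 2.61, 17.5 and 8.44 in WT, where its higher values are those of the samples with seed storage reads. Its call was lost without WT replicate 2 or 3 or *GC::AtTOR* replicate 1 or 2, and without WT replicates 2 and 3 together 0 members were called.

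Under drought 1 member was called between a line and WT. *GC::AtTOR* had 0 members higher and 0 lower than WT (background 0.0106% and 0.00532%), 0 members had an unadjusted p under 0.05, and edgeR and DESeq2 called 0. Without *GC::AtTOR* drought replicate 1 limma called 1. *35S::AtTOR* had 0 higher and 1 lower (background 1.25% and 0.298%), and 12 members, in either direction, had an unadjusted p under 0.05. The share of all genes at that threshold was not counted, so the 12 are not read as a trait of the members. The member called was AT2G42560, at 0.956, 0 and 19.6 normalized counts against 28.1, 26.7 and 63 in WT (adjusted p = 0.0493 from limma), a call that neither edgeR nor DESeq2 made. The median log2 difference of the 27 members was -0.69, against -0.00166 for all genes tested, and -0.20 over the 24 members with a mean of at least 10 over all samples. *LEA7* had 394, 531 and 2282 in *35S::AtTOR* under drought, 4.08-fold below WT in the mean and with all 3 samples below the WT samples (log2 -2.37 ± 0.80, adjusted p = 0.116). *DI21* was 2.92-fold below WT (log2 -1.69 ± 0.46, adjusted p = 0.0508). *35S::AtTOR* drought replicate 3 was the highest of the 3 for both genes, and without it limma called 7 members. Without WT drought replicate 2 or 3 or *35S::AtTOR* drought replicate 1 or 2 it called 0.

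**Figure D5:**
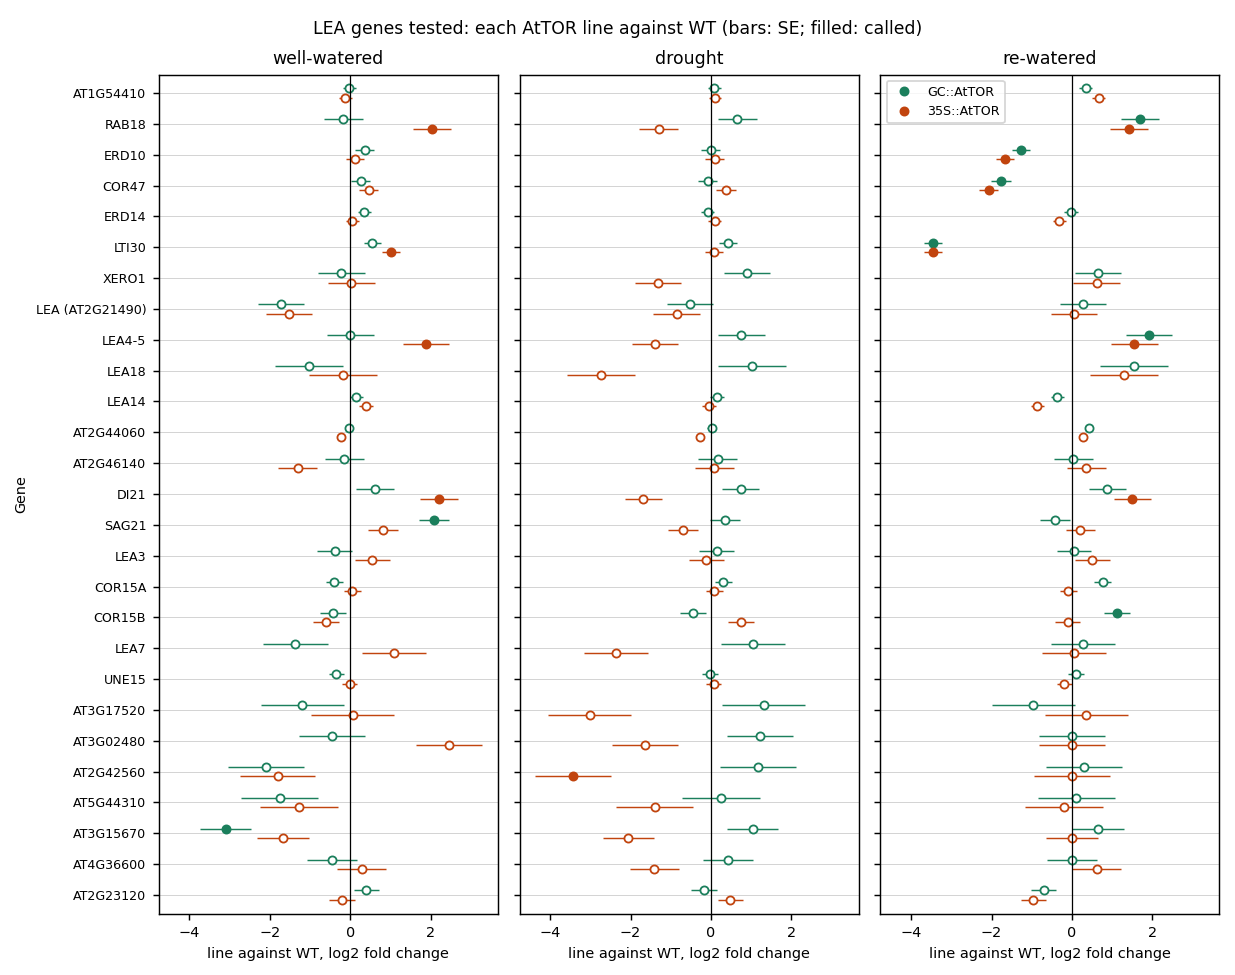
Log2 fold change of normalized count plus 1 of *GC::AtTOR* and of *35S::AtTOR* against WT for the 27 LEA genes tested, in well-watered, drought and re-watered leaves (points with SE, filled where called). *LTI30* in re-watered leaves is at -3.45 and -3.46, and under drought no point of *GC::AtTOR* is filled.

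Transcripts of known regulators of LEA genes were read beside the members. Of 7 ABA-related bZIP genes, *ABF2* was called under drought in WT, from 478, 419 and 477 to 1061, 1262 and 1754 normalized counts (log2 1.54 ± 0.22, adjusted p = 6.1e-06 from limma), and 4 of the 7 were lower in re-watered than in well-watered WT leaves: *ABF1*, *ABF2*, *ABF3* and *ABI5* (background 15.8%). *EEL*, another of the 7, was higher there, with 14.8, 22.2 and 16.9 in well-watered and 77.3, 54.3 and 49.3 in re-watered leaves (background 14.4%). *ABF3* fell to 162, 63.4 and 145 from 521, 539.5 and 597. In re-watered leaves *ABF3* was higher in *GC::AtTOR* (log2 1.33 ± 0.25) and in *35S::AtTOR* (1.20 ± 0.25) than in WT. Of 7 AP2/ERF genes, 6 were tested. Under drought 2 were higher and 0 lower in WT (background 7.61% and 12.8%). The counts were 0 and 2 in *GC::AtTOR* (8.02% and 17%) and 2 and 0 in *35S::AtTOR* (2.32% and 5.44%). In re-watered against well-watered WT leaves 3 were higher and 2 lower (14.4% and 15.8%). Among them *DREB1A* (CBF3), which acts on *COR15A* and other cold-regulated genes, had 679, 559 and 682 in well-watered, 249, 345 and 389.7 in drought and 6.37, 7.41 and 6.8 in re-watered WT leaves. Re-watered leaves had less of it than well-watered leaves in each genotype, with log2 changes of -6.35, -5.95 and -5.01. *DREB2A*, a regulator of drought- and heat-responsive genes, went the other way in WT, from 390.3, 313 and 358 to 2887, 3309 and 2567. Of 7 regulators of seed maturation 5 were too low to test, with *ABI3* at most 0.871 and *LEC1* and *HSFA9* at 0 in every sample. Whether any of these genes drove the LEA genes was not tested.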

How the data were processed

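Leaf RNA of 27 samples, 3 for each of 9 groups, was sequenced as paired reads on an Illumina NovaSeq instrument. The submitters' processing notes name CASAVA, Trimmomatic, STAR, Salmon and DESeq2 and the build TAIR10, in versions not given in the sources used here. The deposited values are a signal of normalized counts: the authors divided each sample's gene counts by its DESeq2 size factor. Values are not divided by gene length, and whether reads were counted by strand was not given in the sources used here. Every column was matched to a sample, and 0 columns were left over.

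Groups came from the labels, which give all 27 samples the same batch value, 1. Genes whose mean reached 10 in any group (18785 of 34218) were fitted with limma 3.58.1 (R 4.3.3, trend) on log2(normalized count + 1), a scale that understates changes of low genes, in 1 model of the 9 groups. Calls required an adjusted p (Benjamini-Hochberg) under 0.05 together with a log2 fold change beyond 1 or -1. These are the thresholds of the study, which applied them with DESeq2. limma was the main test because the values are not raw counts. Folds are ratios of group means and are given only where both means are at least 10.

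Whole reads were recovered from the steps between low values in 26 samples (100% of low values whole within 0.1). *35S::AtTOR* well-watered replicate 1 was left out of edgeR 4.0.16 and DESeq2 1.42.0 fits on those reads, because its step was too close to 1. Depth was 2739872 to 16707106 reads, and a group at 0 was bounded at 3 reads, which covers counting error only. Alternatives were pseudocounts of 0.5 and 5, no filter or a mean of 50, the compared groups alone, a block for replicate or library number, equal sample totals, no floor on the fold change, edgeR, DESeq2, and each replicate left out. The scripts were tested on simulated data. Sequences were read with Python 3.11.15 and Biopython 1.88, and figures drawn with matplotlib 3.10.9. The members and gene lists were chosen with earlier results of these data known. Any of the 49 members and of the listed regulators could be named. Values per sample are given for tested members with the highest or lowest drought or line changes, for those whose response differed between a line and WT, and for those that went against their LEA class.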

Additional observations from a re-analysis of the deposited data

Results flagged for a closer look

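The results listed here are differences between genotypes in the same response that passed the test of the difference itself (limma, adjusted p under 0.05 and beyond 1 or -1 on the log2 scale). Under drought, the response of *35S::AtTOR* was lower than that of WT for *RAB18* (-3.34), *LEA4-5* (-3.28), *DI21* (-3.89) and AT3G02480 (-4.11). Out of 49 members, 0 had a higher and 4 a lower response (background 2.09% and 1.37%). In all 4 the well-watered *35S::AtTOR* samples lay above those of WT. The call of AT3G02480 was lost without any of 9 of the 12 samples. That of *LEA4-5* was lost with edgeR and without *35S::AtTOR* well-watered replicate 2, WT drought replicate 3 or *35S::AtTOR* drought replicate 1 or 2.

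After re-watering, the change from well-watered leaves was lower than in WT in both lines for the dehydrin genes *LTI30* (-4.01 in *GC::AtTOR* and -4.47 in *35S::AtTOR*), *COR47* (-2.02 and -2.53) and *ERD10* (-1.63 and -1.79). The WT samples in the 2 comparisons are the same. Out of 49 members, 4 had a higher and 4 a lower change in *GC::AtTOR* (background 8.8% and 7.87%). In *35S::AtTOR* the counts were 0 and 4 (7.82% and 7.63%). These calls are read gene by gene and not as a trait of the list. In *GC::AtTOR* it was also lower for *SAG21* (-2.50) and higher for *RAB18* (1.86), *COR15B* (1.55) and *COR15A* (1.16). The value for AT3G15670 (3.75) depends on the added 1, since the gene was 0 in all re-watered WT and all well-watered *GC::AtTOR* samples. In *35S::AtTOR* the change was lower for *LEA14* (-1.25). The study reports that WT plants, unlike most plants of the lines, did not survive a drought of this length. The cause of these differences, the condition of the re-watered WT plants included, was not tested.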

How the results depend on the processing

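Of 3177 values of 173 called member results under the alternatives, 3013 kept direction and call, 164 kept direction and lost the call, and 0 reversed. Part of this was fixed in advance. Settings that change only the filter, the groups fitted, the replicate block or the fold floor leave the log2 value unchanged and could not reverse it. Without a fold floor no call could be lost either. For the counts of members called, the cause of a change was not tested. *35S::AtTOR* against WT under drought (1) gave 0 with a pseudocount of 0.5, 2 with 5, 2 without a filter, 0 with only the groups compared, 3 with the replicate block, 0 with the library number block, 2 with equal sample totals, 0 with edgeR and 0 to 7 without single replicates. In re-watered leaves (6) it gave 10 with no fold floor and 3 to 6 without single replicates, and in well-watered leaves (4) 7 without a filter and 1 to 4. *GC::AtTOR* against WT gave 0 to 1 without single replicates under drought (0). In well-watered leaves (2) it gave 1 with a pseudocount of 5, 5 without a filter, 0 with only the groups compared, 1 with edgeR and 0 to 3 without single replicates. The drought response against WT in *35S::AtTOR* (4) gave 7 with only the groups compared, 7 with equal totals, 2 with edgeR and 2 to 5 without single replicates. In *GC::AtTOR* (0) it gave 1 with a pseudocount of 0.5, 1 without a filter, 1 with the replicate block, 2 with DESeq2 and 0 to 3 without single replicates. Without a filter, re-watered against well-watered WT (9) gave 16 and the re-watered response of *35S::AtTOR* (4) gave 8. Equal totals moved the median of all genes by up to 0.32 (log2), and 0 called members changed sign.

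The replicate numbers pair nothing that the labels name. Deviations of same-numbered samples correlated at -0.28 to 0.50 over 15 group pairs, and in 0 of them did all 3 replicates exceed 0.1, so the block is given only here. Over all genes, limma called 3 to 5680 in a comparison, edgeR 4 to 5766 and DESeq2 8 to 5769. Depth limits the members at a few reads, above all in *35S::AtTOR* re-watered replicate 1.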
